A study of Mus musculus with 2 samples.

Results

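Cells that the authors classed as SEC-PRO were set against cells that they classed as ENTERO-PRO. The names stand for secretory and absorptive (enterocyte) progenitors of the mouse ileal crypt. Cells were taken from the class column of the authors' deposited cell table, and their raw unique molecular identifiers (UMIs, 1 per captured transcript) were added up by class within each library. The 2 classes together held 1921 of the 11562 listed cells. SEC-PRO had 782 cells in replicate 1, which was 14.7% of its listed cells (exact 95% binomial interval 13.8 to 15.7%), and 842 cells or 13.5% in replicate 2. ENTERO-PRO had 118 cells or 2.22% in replicate 1 and 179 cells or 2.86% in replicate 2. In all, 1624 SEC-PRO cells and 297 ENTERO-PRO cells were compared.

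Both classes came from the same 2 libraries of Atoh1CreER-T2;R26RTom mice, which the titles name WT. The recombinase CreER-T2 is made where Atoh1 is active, and after tamoxifen it switches on the red reporter Tom in a cell and in its descendants. Tamoxifen had been injected into the peritoneum in 2 doses of 1 mg/mL given 24 h apart, and the ileum was taken 12 h after the last. Crypts were freed with EDTA and dissociated with TrypLE, and live (DAPI-) Tom+ cells were sorted by flow cytometry and made into 10x Genomics 3′ v3.1 libraries. The gate therefore held ENTERO-PRO cells only where they, too, carried the Atoh1-driven label. The labels do not say that the libraries came from separate animals, so p-values measure only the spread between these sums, which may be technical.

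In the crypt, daughters of stem cells take either a secretory fate (goblet, Paneth, enteroendocrine or tuft cell) or an absorptive one (enterocyte). The transcription factor Atoh1 starts the secretory programme and raises the Notch ligands Dll1 and Dll4, which activate Notch in neighbouring cells, where Hes1 then represses Atoh1. Secretory cells build an extensive endoplasmic reticulum and, in goblet cells, the enzymes that attach sugars to mucins. Absorptive cells build a brush border of microvilli with digestive enzymes and nutrient transporters, under transcription factors such as Hnf4a, Hnf4g and Cdx2.

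Replicate 1 had been sequenced more deeply, with 66021021 UMIs in its matrix, than replicate 2 with 40869800. The SEC-PRO sums held 4031708 and 3097584 UMIs, and the ENTERO-PRO sums held 632914 and 789346. A SEC-PRO cell had a median of 5413 UMIs in replicate 1 and 3488 in replicate 2, against 5135 and 3909 for an ENTERO-PRO cell. The median share of mitochondrial UMIs was 4.13% and 3.86% in SEC-PRO cells, against 5.59% in both libraries in ENTERO-PRO cells. The libraries shared 12 cell barcodes, 3 of them in the 2 classes. Summed immune and stromal marker genes came to at most 0.496 CPM (UMIs of a gene out of 1000000 UMIs) in a SEC-PRO sum and were at 0 in both ENTERO-PRO sums.

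The class names were checked against fixed marker genes, whose levels are given here as CPM of all UMIs with no further scaling and with no test. The 6 secretory progenitor markers summed to 576 and 566 CPM in SEC-PRO, against 163 and 191 CPM in ENTERO-PRO. Atoh1 itself stood at 141 and 116 CPM in SEC-PRO, against 36.3 and 35.5 CPM in ENTERO-PRO, and the Notch ligand Dll4 at 30.3 and 32.6 CPM in SEC-PRO, against 3.16 and 2.53 CPM in ENTERO-PRO. The 8 enterocyte markers summed to 719 and 514 CPM in SEC-PRO, against 15880 and 7016 CPM in ENTERO-PRO. Both sets ran the way the names say, but the summed goblet markers, given below, were not lower in ENTERO-PRO. Free RNA was read from barcodes with at most 50 UMIs. It held 311 and 246 CPM of the secretory progenitor markers and 1408 and 1117 CPM of the enterocyte markers. The level in the class that should lack a set was below that of free RNA in both cases. At most 5.01% and 5.625% of SEC-PRO UMIs and 4.58% and 8.47% of ENTERO-PRO UMIs were free RNA, judged from its 50 most abundant genes. A level below that of free RNA, here or later, therefore does not mean that free RNA supplied it, which was not tested. The stem cell markers summed to 839 and 784 CPM in SEC-PRO, against 215 and 177 CPM in ENTERO-PRO, in which Lgr5, Ascl2 and Gkn3 were at 0. Free RNA held 1015 and 827 CPM of the stem cell markers, at or above the SEC-PRO sums. Lgr5, the receptor that marks crypt stem cells, had 53 UMIs in SEC-PRO against none in ENTERO-PRO, at least 3.17-fold higher if 3 counts are taken as the limit over the class that a count of 0 allows. Its level in SEC-PRO, 5.71 and 9.68 CPM, lay below the 19.9 and 19.7 CPM of free RNA.

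Goblet markers were abundant in both classes. They summed to 55350 and 52230 CPM in SEC-PRO, against 61870 and 68790 CPM in ENTERO-PRO. Zg16, a lectin of mature goblet cells, stood at 2241 and 2302 CPM in SEC-PRO, against 17340 and 15320 CPM in ENTERO-PRO. Without Zg16 the other 6 goblet markers summed to 53110 and 49920 CPM in SEC-PRO, against 44530 and 53470 CPM in ENTERO-PRO, so the order turned round in replicate 1. Agr2, a folding enzyme for mucins, stood at 12810 and 9271 CPM in SEC-PRO, against 6489 and 5380 CPM in ENTERO-PRO. In SEC-PRO cells goblet markers made up a median of 4.74% and 4.29% of UMIs, in 1 broad range. Cell by cell, the ENTERO-PRO class fell into 3 sets. Goblet-marked cells, with at least 2% of their UMIs from goblet markers, numbered 44 (37.3%) in replicate 1 and 80 (44.7%) in replicate 2, and goblet markers made up a median of 11.7% and 10.5% of their UMIs. That median was 14.7% and 13.4% in the authors' class GOBLET-PRE. Enterocyte-marked cells, below that limit and with at least 1% of UMIs from enterocyte markers, numbered 37 (31.4%) in replicate 1 and 25 (13.97%) in replicate 2, and enterocyte markers made up a median of 5.85% and 6.403% of their UMIs. The remaining 37 (31.4%) and 74 (41.3%) cells were under both limits and are called double-low, for goblet and enterocyte markers only. Paneth markers summed to 8706 and 13870 CPM in SEC-PRO, against 7027 and 10850 CPM in goblet-marked, 4749 and 30440 CPM in double-low and 8063 and 10320 CPM in enterocyte-marked cells, with 65070 and 125000 CPM in free RNA. A single double-low cell of replicate 2 held 72.5% of the Paneth marker UMIs of its set, and the median cell of that set had 0.682% of its UMIs from them. No SEC-PRO cell reached the 1% limit for enterocyte markers, the highest standing at 0.315% and 0.366%. Few ENTERO-PRO cells lay near the limits: 5 and 8 had between 1 and 3% goblet marker UMIs, and of the cells under the goblet limit 4 and 5 had between 0.5 and 2% enterocyte marker UMIs. Of the goblet-marked cells, 3 in each library also passed the enterocyte limit.

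**Figure D1:**
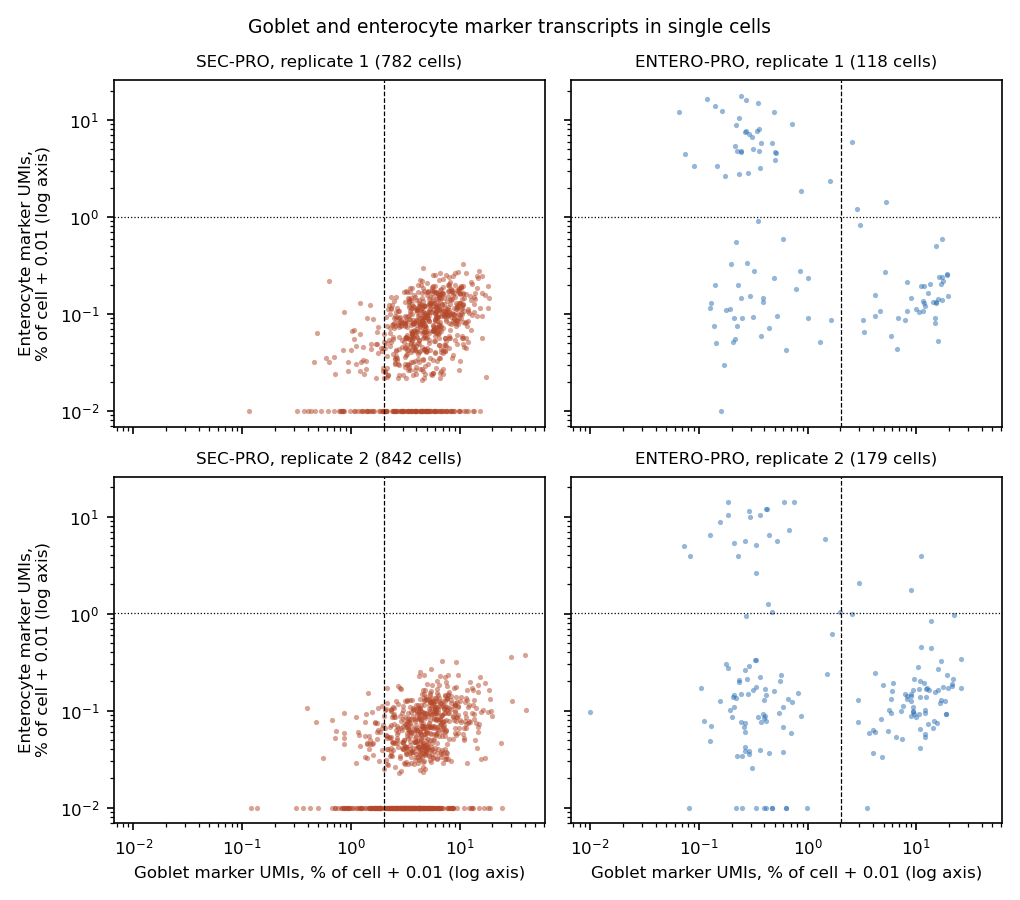
Each point is 1 cell, with the percent of its UMIs from 7 goblet markers (x) and from 8 enterocyte markers (y), both plus 0.01 on log axes. SEC-PRO is on the left and ENTERO-PRO on the right, with replicate 1 above replicate 2. The dashed line marks 2% goblet and the dotted line 1% enterocyte marker UMIs; SEC-PRO cells form 1 cloud under 0.366% enterocyte UMIs, whereas ENTERO-PRO cells form 3 groups.

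The 3 sets differed in depth and in what they gave to the summed class. Goblet-marked cells had a median of 8156 and 6090 UMIs, double-low cells 6034 and 3068, and enterocyte-marked cells 2178 and 2276. Goblet-marked cells supplied 52.8% and 61.1% of the ENTERO-PRO UMIs, double-low cells 30.5% and 31.4%, and enterocyte-marked cells 16.7% and 7.46%. Goblet-marked cells held 86.4% and 89.4% of the secretory progenitor marker UMIs of ENTERO-PRO, and enterocyte-marked cells held 87.1% and 76.1% of its enterocyte marker UMIs. Because the limits were chosen after the values had been seen, the sets are described without a test. No doublet caller was run, and whether droplets with more than 1 cell formed any of the sets was not tested.

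Genes were tested on the class sums with edgeR's quasi-likelihood test, with class and library as terms, and p-values were adjusted over all genes by Benjamini-Hochberg. The labels do not say how the authors drew the classes. Class names usually rest on the same transcripts, so an adjusted p weighs a difference against the spread between sums and is not independent evidence that the classes differ. Of 10947 genes tested, markers left out, 2161 (19.7%) were higher in SEC-PRO and 1694 (15.5%) were lower at an adjusted p under 0.05, together 35.2%. Of these, 1249 were at least 2-fold higher and 947 at least 2-fold lower, and 3851 of the 3855 calls had the same direction in both libraries. The median log2 change over all genes tested was 0.15. Levels below are CPM scaled by the TMM factors unless said otherwise, log2 changes are SEC-PRO over ENTERO-PRO with their standard error (SE), and the p-values given are edgeR's, adjusted over all genes.

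Genes of the cell cycle were higher in SEC-PRO than in ENTERO-PRO as a whole block. All 36 measured members of the G2/M and mitosis list were higher, with a median log2 change of 3.63, and so were all 36 of the G1/S and DNA replication list, with a median of 3.30 (3.18 with Pole, which had no UMI in ENTERO-PRO, set to the bound of 3 counts). This compares with 19.7% of all genes tested. G2/M genes made up 0.549% and 0.476% of all UMIs in SEC-PRO, against 0.0397% and 0.0407% in ENTERO-PRO. G1/S genes made up 0.200% and 0.250% in SEC-PRO, against 0.0254% and 0.0324% in ENTERO-PRO. For every G2/M gene the mean level in SEC-PRO was the highest of all 12 classes of the series. For 21 of the 36 G1/S genes the stem cell class ISC stood highest. How often each class stood highest over all genes tested was not counted, so such counts, here and below, have no background.

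Mki67, the nuclear antigen of dividing cells, stood at 696 and 603 CPM in SEC-PRO, against 52.0 and 55.1 CPM in ENTERO-PRO (log2 change 3.62 ± 0.21 SE, edgeR adjusted p = 1.0e-12). Top2a, the topoisomerase that untangles chromosomes before mitosis, stood at 483 and 499 CPM in SEC-PRO, against 21.1 and 33.0 CPM in ENTERO-PRO (4.18 ± 0.20, edgeR adjusted p = 7.55e-22). Cenpf, a kinetochore protein, stood at 263 and 193 CPM in SEC-PRO, against 19.7 and 11.01 CPM in ENTERO-PRO (3.93 ± 0.23, edgeR adjusted p = 4.34e-25). In each case both SEC-PRO values lay far above both ENTERO-PRO values. Of the other spindle and kinetochore genes named by the rule, Knl1 had a log2 change of 4.70 ± 0.38, Nusap1 4.42 ± 0.30, Cenpe 4.11 ± 0.26, Kif20b 4.05 ± 0.30 and Prc1 3.98 ± 0.28. The histone genes Hist1h1b, Hist1h3c, Hist1h2ae, Hist1h2ap and Hist1h1d ranged from 4.13 to 4.99, but histone genes have near-identical copies between which reads can be split, so these values are uncertain.

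Among replication genes, Hells, a chromatin remodeller, had 903 UMIs in SEC-PRO and 3 in ENTERO-PRO, a ratio of 54.0 after scaling (95% counting interval 18.4 to 262). Rrm1, a subunit of the ribonucleotide reductase that makes DNA precursors, stood at 81.1 and 89.2 CPM in SEC-PRO, against 5.62 and 8.81 CPM in ENTERO-PRO (3.52 ± 0.31, edgeR adjusted p = 1.22e-16). Mcm6, a subunit of the replicative helicase, stood at 75.7 and 100.1 CPM in SEC-PRO, against 8.43 and 12.1 CPM in ENTERO-PRO (3.07 ± 0.36, edgeR adjusted p = 4.35e-08). The helicase subunits Mcm4 (4.59 ± 0.42) and Mcm3 (4.02 ± 0.39) and the chromatin factor Atad2 (4.30 ± 0.28) were higher as well. Slfn9, a Schlafen family gene, was higher by 4.43 ± 0.35.

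The difference was also one of how many cells held such transcripts. With every cell thinned to 2000 UMIs, Mki67 was seen in 438 of 672 SEC-PRO cells of replicate 1 (65.2%, exact 95% interval 61.4 to 68.8%) and in 57.9% in replicate 2. In ENTERO-PRO it was seen in 9 of 93 cells (9.68%, 4.52 to 17.6%) in replicate 1 and in 6.58% in replicate 2. In post-mitotic PANETH cells thinned likewise the share was 3.69% and 4.39%, and in GOBLET-PRE cells 3.06% and 5.43%. PANETH cells had TMM factors of 0.2285 and 0.2607, against 1.13 and 1.15 in ENTERO-PRO. Equal UMIs therefore sampled genes such as Mki67 less deeply in PANETH cells. The PANETH value lay below the interval of ENTERO-PRO in replicate 1 and within it in replicate 2 (3.20 to 11.8%). All 36 G2/M genes and 35 of the 36 G1/S genes were higher in SEC-PRO than in each of the 3 sets of ENTERO-PRO cells in both libraries, which holds for 29.2% of all genes tested. Among cells with at least 1 Mki67 UMI, which left 619 and 554 SEC-PRO cells but only 22 and 21 ENTERO-PRO cells, 31 of the 36 G2/M genes and 20 of the 36 G1/S genes were still higher, with medians of 2.32 and 2.49. In that setting 386 of 10799 genes tested were called higher and 534 lower. These are the background for all counts in Mki67-positive cells given below.

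The promoter of a G2/M gene and that of a G1/S gene are shown for the short motifs that these genes are known for. The cell cycle homology region (CHR), TTTGAA, is bound by the complexes that time G2/M genes, and E2F sites, searched as TTTCGCGC or TTTGGCGC, are bound by E2F factors at G1/S. The sequences are the 250 bases before the start of transcription from RefSeq on GRCm38.p6, 5′ to 3′ on the gene's strand, with motif matches on either strand in capitals. Top2a lies at chr11:99024190-99024439 on the minus strand and holds 2 CHR matches. Mcm6 lies at chr1:128359706-128359955 on the minus strand and holds 3 E2F matches, 2 of which overlap.
Top2a: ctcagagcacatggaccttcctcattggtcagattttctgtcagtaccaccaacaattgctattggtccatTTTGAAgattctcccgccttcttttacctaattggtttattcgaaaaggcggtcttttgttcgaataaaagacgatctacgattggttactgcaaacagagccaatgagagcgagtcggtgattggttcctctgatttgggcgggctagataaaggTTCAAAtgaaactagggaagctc
Mcm6: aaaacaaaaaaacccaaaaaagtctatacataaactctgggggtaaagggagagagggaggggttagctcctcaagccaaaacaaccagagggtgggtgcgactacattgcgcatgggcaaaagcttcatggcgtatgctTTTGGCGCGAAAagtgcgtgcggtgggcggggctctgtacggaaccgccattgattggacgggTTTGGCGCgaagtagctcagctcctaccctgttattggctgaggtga
Over a window from 250 bases before to 50 after the start, 22 of 31 G2/M promoters held a CHR match (71.0%), against 1052 of 8816 promoters of all genes tested (11.9%). An E2F match was found in 8 of 29 G1/S promoters (27.6%), against 155 of 8816 (1.76%). These letters describe the windows and do not show binding in these cells.

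**Figure D2:**
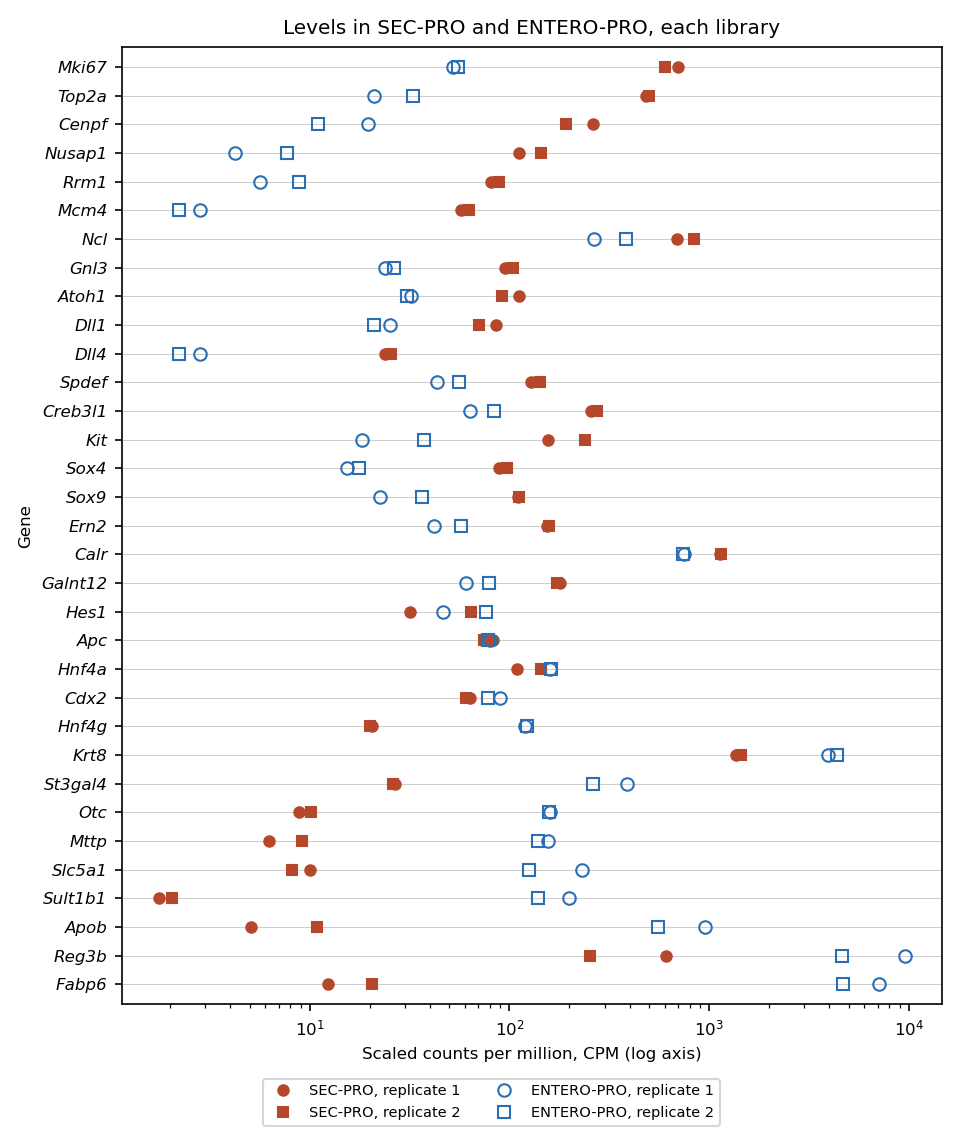
Scaled CPM on a log axis for genes named in the text, 1 row per gene. Filled symbols are SEC-PRO and open symbols ENTERO-PRO, with circles for replicate 1 and squares for replicate 2; for Mki67 the SEC-PRO values of 696 and 603 CPM stand far right of the ENTERO-PRO values of 52.0 and 55.1 CPM, and for Fabp6 the order is turned round.

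Genes that make ribosomes were higher in SEC-PRO, while genes that encode ribosomal proteins hardly differed. Of 30 ribosome biogenesis genes, 18 were higher and none lower, with a median log2 change of 1.07. Ncl (nucleolin), a major nucleolar protein, stood at 689 and 840 CPM in SEC-PRO, against 264 and 385 CPM in ENTERO-PRO (1.23 ± 0.11, edgeR adjusted p = 1.64e-15). Tcof1, which serves transcription of ribosomal DNA, was higher by 2.23 ± 0.22 and the nucleolar GTPase Gnl3 by 1.98 ± 0.21. In 23 of the 30 the level was highest in ISC, not in SEC-PRO. Of 35 cytosolic ribosomal protein genes, 3 were higher (Rpl14, Rpl7 and Rpl4, by 0.29 to 0.33) and none lower, with a median of 0.14 that lay at the median of all genes, and none of the 35 was called with TMM over all genes. That small difference hid opposite ones: all 35 were higher in SEC-PRO than in the enterocyte-marked cells in both libraries (Rpl14 stood at 1841 and 1799 unscaled CPM in SEC-PRO, against 113 and 255 in those cells), while against the double-low cells 4 were higher and 12 lower. Of all 10947 genes tested, 6608 were higher than in enterocyte-marked cells, and 5217 were higher and 2620 lower than in double-low cells. Restricted to Mki67-positive cells, 8 ribosome biogenesis genes were called higher.

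Secretory transcription factors were higher in SEC-PRO. Of 15 measured, 10 were higher and none lower, with a median log2 change of 1.85 (1.09 with genes that had no UMI in ENTERO-PRO set to their bound). Creb3l1, a membrane-bound factor that supports secretory capacity, stood at 257 and 274 CPM in SEC-PRO, against 63.2 and 83.7 CPM in ENTERO-PRO (1.85 ± 0.19, edgeR adjusted p = 2.38e-09). Sox4, a factor tied to secretory and tuft differentiation in mouse intestine, stood at 89.1 and 97.8 CPM in SEC-PRO, against 15.5 and 17.6 CPM in ENTERO-PRO (2.48 ± 0.25, edgeR adjusted p = 1.31e-13). Sox9, needed for Paneth cells and present in crypt progenitors, stood at 111 and 112 CPM in SEC-PRO, against 22.5 and 36.4 CPM in ENTERO-PRO (1.88 ± 0.22, edgeR adjusted p = 7.34e-10). For these 3 genes the SEC-PRO sums exceeded the ENTERO-PRO sums in both libraries by more than the spread between libraries. Bhlha15 (Mist1), which scales up the secretory apparatus, was higher by 2.20 ± 0.44, the forkhead factors Foxa2, Foxa1 and Foxa3 by 2.38 ± 0.54, 1.55 ± 0.25 and 1.09 ± 0.19, and Xbp1, the factor of the unfolded protein response, by only 0.44 ± 0.12. Klf4 and Id2 did not pass the test. None of the 15 had its highest level in SEC-PRO among all classes.

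The gap was narrow against the goblet-marked cells and wide against the others. Creb3l1 stood at 324 and 348 unscaled CPM in SEC-PRO, against 129 and 149 in goblet-marked cells, 10.4 and 12.1 in double-low cells and 0 and 17.0 in enterocyte-marked cells. The median log2 difference of the secretory transcription factors, taken with 5 CPM added, was 0.46 against goblet-marked, 2.18 against double-low and 2.37 against enterocyte-marked cells. For all genes tested these medians were 0.23, 0.24 and 0.85. Still, 11 of the 15 were higher in SEC-PRO than in all 3 sets in both libraries, which holds for 29.2% of all genes tested. In cells with at least 2000 UMIs, thinned to 2000, Creb3l1 was seen in 46.7% and 49.1% of SEC-PRO cells, against 12.9% and 17.1% of ENTERO-PRO cells. The share was 7.83% and 6.20% in PANETH cells and 43.2% and 46.4% in GOBLET-PRE cells. Among the Mki67-positive cells, with few ENTERO-PRO cells left, 4 of the 15 were called higher and the median was 1.63.

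The folding and transport machinery of the endoplasmic reticulum was moderately higher in SEC-PRO. Of 32 genes of folding and the unfolded protein response, 17 were higher and 1 lower, with a median log2 change of 0.45. Hsp90b1, the chaperone GRP94, stood at 1447 and 1418 CPM in SEC-PRO, against 975.3 and 859 CPM in ENTERO-PRO (0.65 ± 0.09, edgeR adjusted p = 1.11e-08). Calr (calreticulin), a lectin chaperone, stood at 1137 and 1152 CPM in SEC-PRO, against 748 and 740 CPM in ENTERO-PRO (0.62 ± 0.10, edgeR adjusted p = 3.75e-07). Hspa5, the chaperone BiP, stood at 1599 and 1739 CPM in SEC-PRO, against 1134 and 1235 CPM in ENTERO-PRO (0.50 ± 0.14, edgeR adjusted p = 0.00734). All 3 chaperones were thus higher by less than 2-fold, with no overlap between classes. Ern2, the stress sensor IRE1-beta of mucous epithelium, differed more, with 154 and 158 CPM in SEC-PRO, against 42.2 and 57.3 CPM in ENTERO-PRO (1.64 ± 0.22, edgeR adjusted p = 5.54e-07). The oxidase Ero1l went the other way (-0.60 ± 0.22, edgeR adjusted p = 0.0271).

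Of 40 genes of protein translocation and transport to the Golgi, 17 were higher and 2 lower, with a median of 0.31. Ssr1, of the translocon-associated complex, stood at 247 and 286 CPM in SEC-PRO, against 129 and 139 CPM in ENTERO-PRO (0.99 ± 0.13, edgeR adjusted p = 1.13e-09), and the signal peptidase subunit Sec11c was higher by 0.74 ± 0.12. The 2 that were lower, Sec23a (-1.83 ± 0.27) and Sar1b (-0.94 ± 0.17), belong to the COPII coat, and Sar1b is known to carry chylomicrons in enterocytes. In the Mki67-positive cells 1 gene of each of these lists was called higher, near the 386 of 10799 for all genes tested. With thinned cells 8 of the transport genes were called higher, beside 1035 of 8082 for all genes tested. The median log2 difference of the folding list was 0.30 against goblet-marked, 0.93 against double-low and 1.40 against enterocyte-marked cells, beside 0.23, 0.24 and 0.85 for all genes tested.

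The promoters of 2 chaperone genes are shown for the endoplasmic reticulum stress element (ERSE), searched as CCAAT, 9 bases of any kind and CCACG, through which the unfolded protein response acts on such genes. Calr lies at chr8:84846932-84847181 on the minus strand and Hspa5 at chr2:34771840-34772089 on the plus strand of the same build, with the fixed letters of the matches in capitals.
Calr: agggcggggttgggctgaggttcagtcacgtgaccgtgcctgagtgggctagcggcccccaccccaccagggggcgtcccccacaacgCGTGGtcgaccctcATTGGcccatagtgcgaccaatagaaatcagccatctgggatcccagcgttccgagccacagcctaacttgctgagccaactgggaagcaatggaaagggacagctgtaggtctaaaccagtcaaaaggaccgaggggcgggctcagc
Hspa5: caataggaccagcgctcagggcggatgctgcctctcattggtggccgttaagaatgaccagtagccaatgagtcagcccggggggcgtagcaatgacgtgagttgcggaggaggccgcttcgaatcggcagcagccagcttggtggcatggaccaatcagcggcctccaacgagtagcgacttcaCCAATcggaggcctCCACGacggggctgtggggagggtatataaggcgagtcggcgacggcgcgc
Of 27 promoters of the folding list, 9 held this element (33.3%), against 15 of 8816 promoters of all genes tested (0.170%). The match in Calr reads on the opposite strand and that in Hspa5 on the gene's own strand.

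Mucin glycosylation genes were higher in SEC-PRO with clear exceptions. Of 28 measured, 16 were higher and 4 lower, with a median log2 change of 0.74. Galnt7 and Galnt12 encode transferases that start or extend O-glycans on mucins. Galnt7 stood at 540 and 600 CPM in SEC-PRO, against 270 and 279 CPM in ENTERO-PRO (1.06 ± 0.12, edgeR adjusted p = 8.42e-11), and Galnt12 at 180 and 173 CPM in SEC-PRO, against 60.4 and 79.3 CPM in ENTERO-PRO (1.31 ± 0.16, edgeR adjusted p = 3.37e-10). The sialyltransferase St3gal4 ran the other way, with 26.9 and 26.2 CPM in SEC-PRO, against 389 and 261 CPM in ENTERO-PRO (-3.59 ± 0.18, edgeR adjusted p = 8.99e-17). The other 3 lower genes were Papss2, which makes the sulfate donor (-1.94 ± 0.30), Gcnt1 (-2.98 ± 1.097), and Gcnt4, with 2 UMIs in SEC-PRO and 26 in ENTERO-PRO, 72.5 times as high in ENTERO-PRO after scaling (18.2 to 631). In the Mki67-positive cells 5 genes of the list were called higher and 3 lower.

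Goblet and Paneth products other than markers did not run one way: 7 of 24 were higher and 3 lower, with a median of -0.07 that turned to 0.17 with thinned cells. The shares over all genes tested were 19.7% and 15.5%. Goblet-marked cells held 74.9% and 81.4% of the list's ENTERO-PRO UMIs. With 5 CPM added, its median log2 difference was -0.15 against goblet-marked, 2.04 against double-low and 2.24 against enterocyte-marked cells. For all genes tested these medians were 0.23, 0.24 and 0.85. Kit, the receptor tyrosine kinase found on some deep crypt secretory cells, stood at 157 and 238 CPM in SEC-PRO, against 18.3 and 37.5 CPM in ENTERO-PRO (2.80 ± 0.20, edgeR adjusted p = 4.27e-19). Sox9, Wnt3, Reg4, Ccl9, Clca3b and Tspan13 were the other higher members. Muc3, a membrane mucin of the enterocyte surface, stood at 5.69 and 8.13 CPM in SEC-PRO, against 327 and 196 CPM in ENTERO-PRO (-5.25 ± 0.38, edgeR adjusted p = 1.58e-07). The membrane mucin Muc13 (-0.47 ± 0.12) and the stress regulator Nupr1 (-0.74 ± 0.19) were the other lower members.

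**Figure D3:**
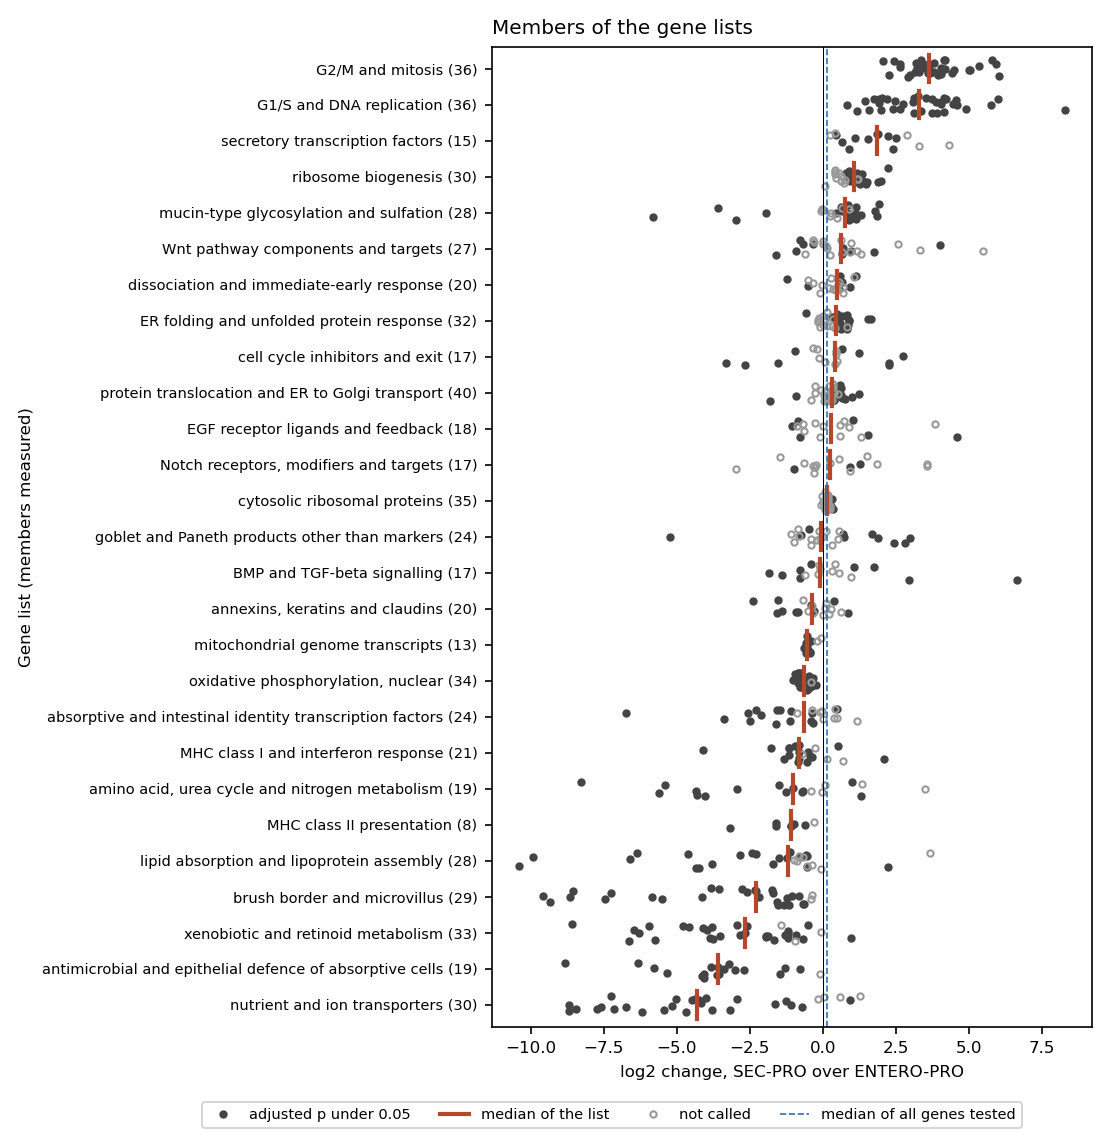
Each point is 1 measured gene of the named list, placed by its log2 change of SEC-PRO over ENTERO-PRO, with the number measured in brackets. Dark points passed an adjusted p under 0.05, the red bar is the list's median and the dashed line the median of all genes tested (0.15); cell cycle lists lie furthest right with medians of 3.63 and 3.30, and the nutrient and ion transporter list lies furthest left with -4.32.

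Transcription factors of absorptive and intestinal identity were lower in SEC-PRO in 14 of 24 cases and higher in 1, against 15.5% and 19.7% of all genes tested, with a median log2 change of -0.66. Hnf4g, which works with Hnf4a in enterocyte differentiation, stood at 20.6 and 20.1 CPM in SEC-PRO, against 119 and 122 CPM in ENTERO-PRO (-2.56 ± 0.17, edgeR adjusted p = 1.78e-22). Its partner Hnf4a differed little, with 109 and 144 CPM in SEC-PRO, against 160 and 161 CPM in ENTERO-PRO (-0.34 ± 0.14, edgeR adjusted p = 0.0407). Cdx2, the master factor of intestinal identity, stood at 63.8 and 61.0 CPM in SEC-PRO, against 89.9 and 78.2 CPM in ENTERO-PRO (-0.43 ± 0.17, edgeR adjusted p = 0.0466), a call that was lost under 7 of 11 alternatives. Its relative Cdx1 was the member that was higher, with 219 and 174 CPM in SEC-PRO, against 152 and 128 CPM in ENTERO-PRO (0.49 ± 0.13, edgeR adjusted p = 0.00212). Whether Hnf4a and Hnf4g differed in the size of their change was not tested.

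Nuclear receptors were among the lower members. Nr1h4 (FXR), the bile acid receptor, stood at 12.4 and 10.9 CPM in SEC-PRO, against 50.6 and 49.6 CPM in ENTERO-PRO (-2.11 ± 0.28, edgeR adjusted p = 3.24e-09), and Vdr, the vitamin D receptor, at 23.9 and 33.3 CPM in SEC-PRO, against 94.2 and 80.4 CPM in ENTERO-PRO (-1.61 ± 0.19, edgeR adjusted p = 1.2e-11). Maf, a factor of villus enterocytes in mouse, stood at 0.785 and 2.29 CPM in SEC-PRO, against 184 and 145 CPM in ENTERO-PRO (-6.75 ± 0.49, edgeR adjusted p = 5.12e-08). The lipid sensors Ppara (-2.50 ± 0.40), Nr1h3 (-3.39 ± 0.48), Rxra (-1.49 ± 0.33) and Esrra (-1.12 ± 0.21) were lower too, whereas Elf3, Isx, Gata4, Gata5 and Gata6 did not pass the test. Without scaling, Hnf4g stood at 26.0 and 25.5 CPM in SEC-PRO, against 95.9 and 85.0 in goblet-marked, 150 and 194 in double-low and 227 and 374 in enterocyte-marked cells. With thinned cells 7 of the 24 were called lower, and 5 among the Mki67-positive cells.

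The brush border programme was lower in SEC-PRO nearly throughout. Of 29 measured genes 27 were lower and none higher, with a median log2 change of -2.30. Together they made up 0.166% and 0.175% of UMIs in SEC-PRO, against 1.497% and 1.03% in ENTERO-PRO. The list includes Fabp6, a cytosolic protein rather than a part of the brush border. Fabp6 alone held 5060 of the list's 9469 ENTERO-PRO UMIs in replicate 1 and 4255 of 8122 in replicate 2. Fabp6, the ileal bile acid binding protein, stood at 12.4 and 20.6 CPM in SEC-PRO, against 7111 and 4687 CPM in ENTERO-PRO (-8.56 ± 0.46, edgeR adjusted p = 1.11e-08). Espn, which bundles actin in microvilli, stood at 4.32 and 10.4 CPM in SEC-PRO, against 171 and 87.0 CPM in ENTERO-PRO (-4.15 ± 0.44, edgeR adjusted p = 7.68e-06). Vil1 (villin), the core bundling protein, differed less, with 171 and 180 CPM in SEC-PRO, against 412 and 385 CPM in ENTERO-PRO (-1.18 ± 0.11, edgeR adjusted p = 1.35e-14). Espn in SEC-PRO, at 5.46 and 13.2 unscaled CPM, lay below the 25.7 and 33.4 CPM of free RNA. The protease Mep1a had 1 UMI in SEC-PRO and 161 in ENTERO-PRO, 898 times as high in ENTERO-PRO after scaling (159 to 35690), and its partner Mep1b was lower (-7.27 ± 0.28.) Myo7b and Cgn did not pass the test.

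All 3 sets of ENTERO-PRO cells shared the difference in kind but not in size. In both libraries 23 of the 29 brush border genes were lower in SEC-PRO than in every set, against 7.39% of all genes tested. The median log2 difference, with 5 CPM added, was -0.98 against goblet-marked, -1.20 against double-low and -3.41 against enterocyte-marked cells. For all genes tested these medians were 0.23, 0.24 and 0.85. Fabp6 stood at 15.6 and 26.2 unscaled CPM in SEC-PRO, against 3565 and 2892 in goblet-marked, 11870 and 8315 in double-low and 14890 and 13530 in enterocyte-marked cells. In cells with at least 2000 UMIs, thinned to 2000, Fabp6 was seen in 3.12% and 4.34% of SEC-PRO cells, against 68.8% and 65.1% of ENTERO-PRO cells. The share was 2.30% and 5.69% in PANETH cells and 3.99% and 5.04% in GOBLET-PRE cells, near the SEC-PRO share. Restricted to Mki67-positive cells, 20 of the 29 were called lower.

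Lipid absorption genes were lower in 19 of 28 cases and higher in 1, with a median of -1.19 (-1.38 with genes at 0 in a class set to their bound). Apob, the scaffold of chylomicrons, stood at 5.10 and 10.9 CPM in SEC-PRO, against 954 and 553 CPM in ENTERO-PRO (-6.59 ± 0.38, edgeR adjusted p = 2.16e-08). Mttp, which loads lipid onto Apob, stood at 6.28 and 9.15 CPM in SEC-PRO, against 156 and 139 CPM in ENTERO-PRO (-4.25 ± 0.21, edgeR adjusted p = 3.44e-30), and Dgat1, which makes triglyceride, was lower (-3.79 ± 0.19.) Apoc3, an apolipoprotein of chylomicrons, had 1 UMI in SEC-PRO and 243 in ENTERO-PRO, 95.6% and 90.7% of them in enterocyte-marked cells. The one higher gene was Fabp5, a fatty acid binding protein, with 23.4 and 18.0 CPM in SEC-PRO, against 4.22 and 4.41 CPM in ENTERO-PRO (2.23 ± 0.59, edgeR adjusted p = 0.00387). The Apob level of ENTERO-PRO rested largely on few cells: enterocyte-marked cells, 62 in all, held 84.2% and 62.0% of its UMIs. Its unscaled level was 6.45 and 13.9 CPM in SEC-PRO, against 186 and 238 in goblet-marked cells and 233 and 306 in double-low cells. In the Mki67-positive cells 9 of the lipid genes were called lower.

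Nutrient and ion transporters showed the lowest median of the 27 lists, -4.32. Of 30 measured, 25 were lower and 1 higher. Slc51a, a subunit of the bile acid exporter of ileal enterocytes, stood at 0.785 and 1.02 CPM in SEC-PRO, against 208 and 159 CPM in ENTERO-PRO (-7.60 ± 0.32, edgeR adjusted p = 6.67e-26). Slc5a1 (SGLT1), the sodium-glucose transporter, stood at 10.0 and 8.13 CPM in SEC-PRO, against 231 and 126 CPM in ENTERO-PRO (-4.26 ± 0.22, edgeR adjusted p = 7.19e-23). The phosphate transporter Slc34a2 had 2 UMIs in SEC-PRO and 167 in ENTERO-PRO, 466 times as high in ENTERO-PRO after scaling (127 to 3878), and enterocyte-marked cells held 92.8% and 85.7% of these. Slc51a and Slc34a2 were thus close to 0 in both SEC-PRO sums. Slc12a8, a solute carrier of the cation-chloride family, was higher, with 165 and 154 CPM in SEC-PRO, against 84.3 and 85.9 CPM in ENTERO-PRO (0.91 ± 0.28, edgeR adjusted p = 0.0242). In the Mki67-positive cells 16 transporters were called lower.

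Of the promoters of the brush border, lipid, transporter and xenobiotic lists, 2 are shown for a match to the recognition sequence of HNF4 factors, searched as CAAAGTCCA, CAAAGTTCA or CAAAGGTCA. Slc26a3 encodes the chloride-bicarbonate exchanger of the brush border and stood at 0.785 and 0.254 CPM in SEC-PRO, against 43.6 and 46.3 CPM in ENTERO-PRO (-6.21 ± 0.50). Slc3a1, a subunit of the cystine transporter, stood at 1.37 and 1.27 CPM in SEC-PRO, against 42.2 and 29.7 CPM in ENTERO-PRO (-4.68 ± 0.46). The windows lie at chr12:31437969-31438218 for Slc26a3 and chr17:85028097-85028346 for Slc3a1, both on the plus strand, with the match in capitals. Both genes were chosen after their matches had been seen.
Slc26a3: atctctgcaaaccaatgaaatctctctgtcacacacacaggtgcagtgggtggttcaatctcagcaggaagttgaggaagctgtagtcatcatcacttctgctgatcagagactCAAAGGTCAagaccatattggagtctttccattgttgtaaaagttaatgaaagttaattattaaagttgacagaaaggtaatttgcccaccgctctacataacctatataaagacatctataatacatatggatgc
Slc3a1: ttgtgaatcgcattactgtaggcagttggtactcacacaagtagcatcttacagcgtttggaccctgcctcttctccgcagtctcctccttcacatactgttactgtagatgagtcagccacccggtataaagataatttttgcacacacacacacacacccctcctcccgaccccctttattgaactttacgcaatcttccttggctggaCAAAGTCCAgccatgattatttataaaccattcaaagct
A match was found in 6 of 99 promoters of the 4 lists (6.06%), against 93 of 8816 of all genes tested (1.05%). HNF4 sites are also common in distal enhancers, which these windows do not cover.

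Enzymes of xenobiotic and retinoid metabolism were lower in 29 of 33 cases and higher in 1, with a median log2 change of -2.66. Sult1b1, a sulfotransferase, stood at 1.77 and 2.03 CPM in SEC-PRO, against 200 and 139 CPM in ENTERO-PRO (-6.46 ± 0.26, edgeR adjusted p = 3.42e-36). Ces2e, a carboxylesterase, was lower (-5.75 ± 0.26), as were Mgst1, a glutathione transferase of membranes (-4.11 ± 0.32), and the sulfotransferase Sult1d1 (-3.86 ± 0.17). Gstm1, a cytosolic glutathione transferase, was higher (0.95 ± 0.25). These genes belong to families of close relatives, so their single values carry some uncertainty. Among the Mki67-positive cells 15 genes of the list were called lower.

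Of 19 genes of amino acid, urea cycle and nitrogen metabolism, 12 were lower and 2 higher, with a median of -1.03 (-1.28 with a gene at 0 set to its bound). Otc, the urea cycle enzyme that makes citrulline in the gut, stood at 8.83 and 10.2 CPM in SEC-PRO, against 160 and 159 CPM in ENTERO-PRO (-4.05 ± 0.26, edgeR adjusted p = 3.34e-12). The purine enzymes Ada (-4.36 ± 0.22) and Gda (-5.39 ± 0.25) were lower as well, while the glutamine synthetase Glul (1.28 ± 0.21) and Hpd, of tyrosine breakdown (0.99 ± 0.24), were higher. Enterocyte-marked cells held 92.5% and 81.1% of the Ada UMIs of ENTERO-PRO. Ada stood at 11.2 and 7.10 unscaled CPM in SEC-PRO, against 27.0 and 41.5 in goblet-marked, 5.17 and 0 in double-low and 1163 and 1460 in enterocyte-marked cells, so it was not lower in SEC-PRO than in double-low cells. Otc was spread over the sets in other proportions than Ada and Apob. It stood at 11.2 and 12.9 unscaled CPM in SEC-PRO, against 132 and 143 in goblet-marked, 310 and 286 in double-low and 94.5 and 67.9 in enterocyte-marked cells. Dmbt1, a mucosal scavenger protein of innate defence, had 43.9 and 91.0 in SEC-PRO, against 500 and 858 in goblet-marked, 978 and 1233 in double-low and only 18.9 and 34.0 in enterocyte-marked cells. Enterocyte-marked cells thus held 8.77% and 2.78% of the Otc UMIs and 0.559% and 0.277% of the Dmbt1 UMIs of ENTERO-PRO.

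**Figure D4:**
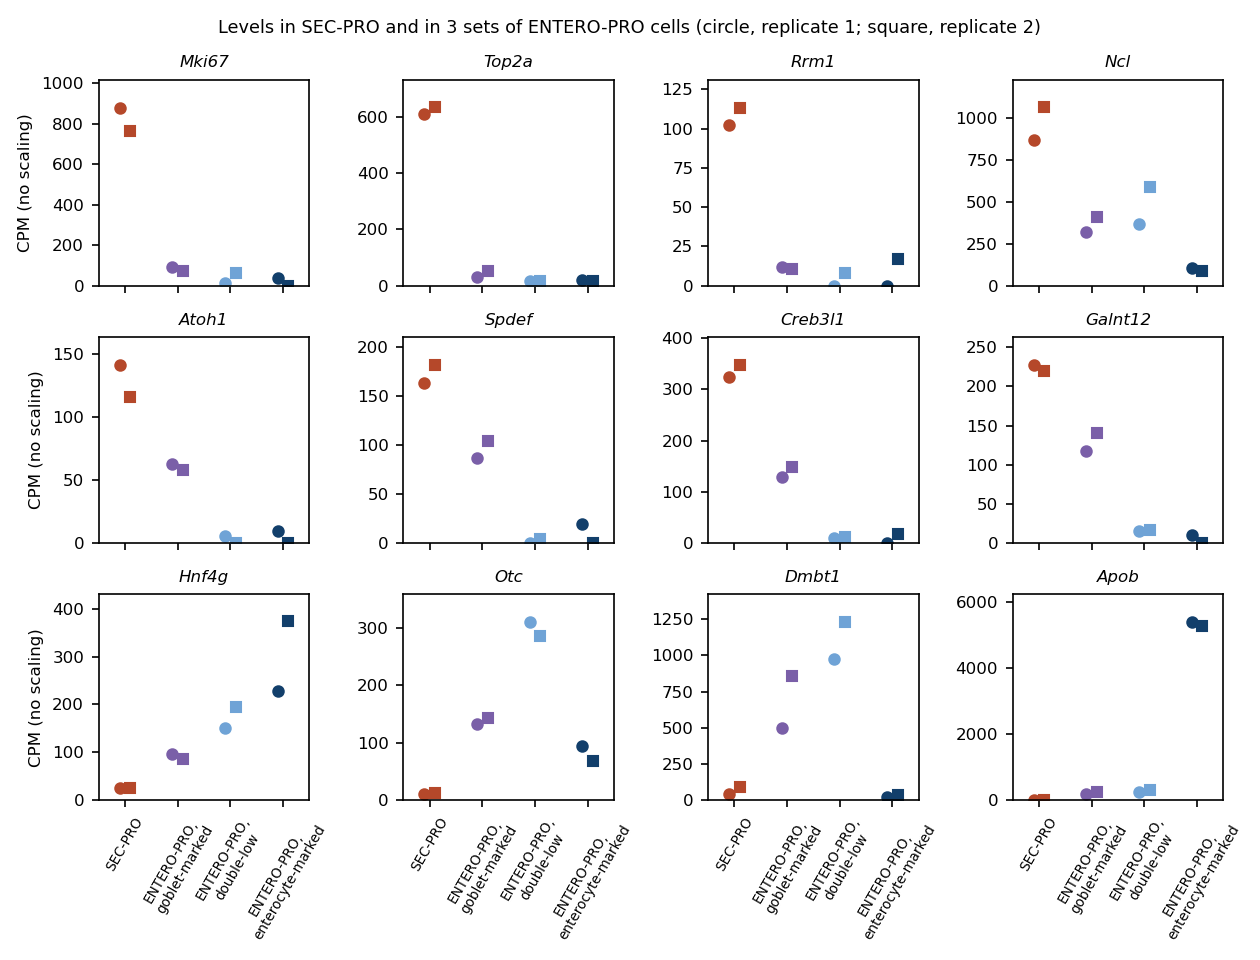
Unscaled CPM of 12 genes in SEC-PRO and in the goblet-marked, double-low and enterocyte-marked cells of ENTERO-PRO, with 1 symbol per library (circle, replicate 1; square, replicate 2). Mki67 is highest in SEC-PRO (879 and 766 CPM), Creb3l1 is highest in SEC-PRO and next in goblet-marked cells, Otc and Dmbt1 peak in double-low cells (310 and 286 CPM for Otc), and Apob peaks in enterocyte-marked cells (5407 and 5280 CPM).

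Defence genes of absorptive cells were lower in SEC-PRO in 18 of 19 cases, with a median log2 change of -3.58. Reg3b, an antimicrobial lectin, stood at 610 and 252 CPM in SEC-PRO, against 9556 and 4647 CPM in ENTERO-PRO (-4.07 ± 0.33, edgeR adjusted p = 8.47e-07). Free RNA held 1696 and 825 unscaled CPM of Reg3b, above its level in SEC-PRO, but made up at most 5.01% and 5.625% of SEC-PRO UMIs. Ccl25, the chemokine that draws lymphocytes to the small intestine, stood at 21.2 and 26.9 CPM in SEC-PRO, against 461 and 357 CPM in ENTERO-PRO (-4.09 ± 0.23, edgeR adjusted p = 4.5e-10). Gsdmc4, of the pore-forming gasdermins, was lower (-6.34 ± 0.30), and the acute-phase gene Saa1 had no UMI in SEC-PRO and 34 in ENTERO-PRO, at least 63.2-fold lower in SEC-PRO with a limit of 3 counts over the class. Reg3b and the gasdermins C have close paralogs, which makes their single values uncertain.

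Antigen presentation followed the same direction. Of 8 class II genes 7 were lower, with a median of -1.098, and the master regulator Ciita did not pass the test (-0.30 ± 0.50, edgeR adjusted p = 0.692). H2-Aa, a class II chain, stood at 93.4 and 106 CPM in SEC-PRO, against 385 and 230 CPM in ENTERO-PRO (-1.60 ± 0.27, edgeR adjusted p = 0.000494). The peptide-trimming protease Ctss was lower (-3.19 ± 0.27.) Of 21 class I and interferon genes 15 were lower and 2 higher, with a median of -0.81. B2m, the light chain of class I, stood at 326 and 239 CPM in SEC-PRO, against 861 and 454 CPM in ENTERO-PRO (-1.18 ± 0.11, edgeR adjusted p = 5.97e-15), and Ifitm2 (0.52 ± 0.14) and Ifitm3 (2.08 ± 0.69) were the higher members. The call of Ifitm3 was lost under 6 of 11 alternatives, among them DESeq2 size factors and TMM over all genes, and its scaled level of 62.2 and 79.5 CPM in SEC-PRO stood beside 199 and 206 unscaled CPM in free RNA. Immune cell markers were at 0 in ENTERO-PRO. Among the Mki67-positive cells 3 class II and 6 class I and interferon genes were called lower, with medians of -1.02 and -0.70. Against double-low cells all 8 class II genes were lower in SEC-PRO in both libraries. Of the class I and interferon genes, 9 were lower and 7 higher than in double-low cells, with a median log2 difference of -0.10. Against goblet-marked cells 15 were lower and 3 higher, and against enterocyte-marked cells 10 were lower and 5 higher.

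Genes of the respiratory chain were lower in SEC-PRO by a modest amount. Of 34 nuclear genes of oxidative phosphorylation 33 were lower and none higher, with a median log2 change of -0.65, and in 31 of the 34 ENTERO-PRO had the highest level of all classes. Cox4i1, a subunit of cytochrome c oxidase, stood at 967 and 912 CPM in SEC-PRO, against 1610 and 1671 CPM in ENTERO-PRO (-0.81 ± 0.09, edgeR adjusted p = 1.69e-12), and Atp5c1, a subunit of ATP synthase, was lower (-1.04 ± 0.10.) Of 13 transcripts of the mitochondrial genome 11 were lower, with a median of -0.54, beside the higher mitochondrial share of ENTERO-PRO cells given above. The sets differed here: 34 of the 34 nuclear genes were lower in SEC-PRO than in double-low cells in both libraries, and 28 than in goblet-marked cells. Against enterocyte-marked cells 8 were lower and 14 higher, and the median log2 difference, with 5 CPM added, was 0.13, beside -0.90 for double-low and -0.35 for goblet-marked cells. For all genes tested these medians were 0.85, 0.24 and 0.23. Of these 10947 genes, 6608 were higher and 1936 lower in SEC-PRO than in enterocyte-marked cells in both libraries. The part of depth and RNA quality in the respiratory chain differences was not tested.

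Inhibitors of the cell cycle split. Of 17 measured, 5 were higher in SEC-PRO (Cdkn1b, Cdkn2c, Cdkn2d, Rbl1 and Btg2) and 4 lower (Cdkn1a, Cdkn2b, Gadd45a and Ccng2). Cdkn2b (p15) stood at 12.4 and 9.65 CPM in SEC-PRO, against 119 and 101 CPM in ENTERO-PRO (-3.31 ± 0.21, edgeR adjusted p = 2.81e-24). Cdkn1a (p21) stood at 55.1 and 69.9 CPM in SEC-PRO, against 209 and 156 CPM in ENTERO-PRO (-1.54 ± 0.23, edgeR adjusted p = 3.8e-05). Rbl1 (p107), a pocket protein that is itself transcribed in cycling cells, stood at 25.9 and 33.3 CPM in SEC-PRO, against 2.81 and 5.51 CPM in ENTERO-PRO (2.75 ± 0.43, edgeR adjusted p = 1.51e-07). Ccnd1 (cyclin D1), counted among the Wnt targets, was lower in SEC-PRO, with 131 and 150 CPM, against 235 and 257 CPM in ENTERO-PRO (-0.80 ± 0.16, edgeR adjusted p = 0.000262). Its unscaled level was 166 and 191 CPM in SEC-PRO, against 243 and 274 in goblet-marked, 440 and 403 in double-low and 9.45 and 17.0 in enterocyte-marked cells.

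Few Notch genes other than the ligands, which served as markers, passed the test: 2 of 17 were higher and 1 lower, a share below the background of 35.2%. Mib1, the ubiquitin ligase that activates Notch ligands in the sending cell, stood at 62.0 and 54.6 CPM in SEC-PRO, against 25.3 and 35.3 CPM in ENTERO-PRO (0.92 ± 0.21, edgeR adjusted p = 3.11e-04). Numb, an antagonist of Notch, was lower (-0.98 ± 0.37, edgeR adjusted p = 0.0401) in a call that was lost under 4 of 11 alternatives, and Lfng, which modifies Notch with sugar, was higher (1.26 ± 0.50, edgeR adjusted p = 0.0416) in a call that was lost under 10 of 11 alternatives. Hes1, the target that represses Atoh1, stood at 31.8 and 64.5 CPM in SEC-PRO, against 46.4 and 76.0 CPM in ENTERO-PRO, which did not pass the test (-0.34 ± 0.19, edgeR adjusted p = 0.167). The receptor Notch1 had 33 UMIs in SEC-PRO and 3 in ENTERO-PRO, a scaled ratio of 1.97 with a counting interval of 0.619 to 10.1, so a difference was not detectable at this depth.

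Of 27 Wnt components and targets 5 were higher and 5 lower, near the 19.7% and 15.5% of all genes tested. The receptors of ephrins and their ligands formed opposite pairs: the receptors Ephb2 and Ephb3 were higher in SEC-PRO, while the ligands Efnb1 (-0.69 ± 0.21) and Efnb2 (-0.93 ± 0.24) were lower. Cd44, an adhesion receptor and Wnt target, had 183 UMIs in SEC-PRO and 2 in ENTERO-PRO, a scaled ratio of 16.4 (4.48 to 136). The Wnt receptor Fzd5 stood at 24.9 and 22.4 CPM in SEC-PRO, against 73.1 and 71.6 CPM in ENTERO-PRO (-1.62 ± 0.20, edgeR adjusted p = 2.84e-10). Ctnnb1 (beta-catenin) was slightly lower, with 146 and 152 CPM in SEC-PRO, against 188 and 192 CPM in ENTERO-PRO (-0.35 ± 0.13, edgeR adjusted p = 0.0221). Apc, the scaffold of its destruction complex, stood at 83.0 and 74.9 CPM in SEC-PRO, against 80.1 and 78.2 CPM in ENTERO-PRO (-0.01 ± 0.17, edgeR adjusted p = 0.983).

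Of 17 BMP and TGF-beta genes 4 were higher and 5 lower, against 19.7% and 15.5% of all genes tested. Id1 and Id3 are direct targets of BMP signals. Id1 stood at 37.5 and 39.1 CPM in SEC-PRO, against 149 and 132 CPM in ENTERO-PRO (-1.85 ± 0.28, edgeR adjusted p = 1.1e-04), and Id3 at 53.4 and 57.4 CPM in SEC-PRO, against 164 and 133 CPM in ENTERO-PRO (-1.42 ± 0.15, edgeR adjusted p = 1.32e-12). The ligand Bmp7 had 130 UMIs in SEC-PRO and 3 in ENTERO-PRO, a scaled ratio of 7.77 (2.60 to 38.2). Of 18 genes of the EGF pathway 3 were higher and 3 lower, again near the share of all genes tested. The receptor Erbb3 stood at 40.6 and 36.3 CPM in SEC-PRO, against 94.2 and 69.4 CPM in ENTERO-PRO (-1.07 ± 0.18, edgeR adjusted p = 4.83e-07), and Erbb2 and the ligand Hbegf were lower too (-0.87 ± 0.27 and -0.77 ± 0.26). Lrig1, which restrains these receptors, was higher, with 28.7 and 29.0 CPM in SEC-PRO, against 14.1 and 6.61 CPM in ENTERO-PRO (1.52 ± 0.34, edgeR adjusted p = 1.92e-04), and Etv5, a target of the pathway, had 142 UMIs in SEC-PRO and 1 in ENTERO-PRO, a scaled ratio of 25.5 (4.50 to 1012). Among the Mki67-positive cells none of the EGF genes was called, and 2 of the BMP genes were, both lower.

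Immediate-early genes, which can be switched on by dissociation, were higher in 5 of 20 cases and lower in 2, near the background. Jun stood at 548 and 615 CPM in SEC-PRO, against 278 and 340 CPM in ENTERO-PRO (0.91 ± 0.26, edgeR adjusted p = 0.0158), whereas Zfp36 (-0.53 ± 0.21) and Socs3 (-1.23 ± 0.43) were lower. Of 20 annexins, keratins and claudins 8 were lower and 2 higher. Krt8, a keratin of simple epithelium, stood at 1367 and 1447 CPM in SEC-PRO, against 3932 and 4399 CPM in ENTERO-PRO (-1.56 ± 0.14, edgeR adjusted p = 1.89e-16). Its pairing partner Krt18 was slightly higher (0.36 ± 0.09, edgeR adjusted p = 0.00141). That difference changed sign among the Mki67-positive cells, and the call was lost with TMM over all genes and without the replicate block. Unscaled, Krt18 stood at 1330 and 1230 CPM in SEC-PRO, against 1345 and 1300 in goblet-marked, 497 and 367 in double-low and 75.6 and 102 in enterocyte-marked cells. Anxa2, a membrane-binding protein, was lower (-1.42 ± 0.12.)

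Of the 145 genes named by the rule, 40 overlap another counted gene, 37 of them with a gene on the opposite strand, among these Nusap1, Ccl25, Dmbt1, Sox4, Mttp, Slc51a, B2m and Krt8. The labels do not say whether reads were counted by strand, so a share of such counts could belong to the partner.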

How the data were processed

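Per the submitters' processing notes, Cell Ranger 3.0.2 with STAR and the build mm10 were used. Raw UMI counts of 31053 genes for every barcode are in the deposited matrices, unfiltered. The authors' deposited cell table gives each kept cell's class, UMI and gene counts and percent of mitochondrial UMIs, and the listed cells had 601 to 2999 genes. Its 2 library names were tied to the replicates through the names of the matrices. UMI totals in table and matrix were equal for 77.6% and 73.9% of cells and differed elsewhere by at most 11 and 25 UMIs.

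Counts were summed over the cells of each of the 12 classes in each library, giving 24 sums. Using all of them shares 1 estimate of spread. In R 4.3.3, edgeR 4.0.16 (filterByExpr, robust quasi-likelihood fit, 11 residual degrees of freedom, median biological coefficient of variation 0.064) tested SEC-PRO against ENTERO-PRO with class and library as terms. TMM factors were taken from genes whose average log2 CPM was 6 or more, p-values were adjusted by Benjamini-Hochberg, and 47 marker genes were left out of counts of calls. The replicate number marks the library that both classes share, so the fit is paired: library differences of the 2 classes correlated at 0.487 over 3834 genes, against a median of 0.298 over 66 pairs of classes. Alternatives included DESeq2 1.42.0. The edgeR test, but not the DESeq2 test, was tried on simulated data. Shares of cells used exact (Clopper-Pearson) 95% intervals, which, like the floor of 3 counts, cover counting error only. Tables and figures were made with Python 3.11.15, pandas 2.3.3, scipy 1.17.1 and matplotlib 3.10.9.

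The cells, the 27 gene lists and the rule for named genes were chosen with earlier results of these data known. The rule took the 14 largest and 14 smallest log2 changes among called genes whose average log2 CPM was 5 or more and whose direction was shared by both libraries, the 3 smallest p of each list, called members against the direction of their list, and fixed genes. Further list members and Slc26a3, Slc3a1, Maf, Vil1 and Hspa5 were named after their values were seen. Gene names come from the matrices and promoters from RefSeq on GRCm38.p6, matched for 8816 of the 10994 genes tested (80.2%).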

Additional observations from a re-analysis of the deposited data

How the results depend on the processing

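The counts of genes higher and lower in SEC-PRO (2161 and 1694) stayed within 1.5 times under 9 of 11 alternatives with a test. Thinning cells to 2000 UMIs, with cells under 2000 left out, gave 1035 higher and 1041 lower. Keeping only cells with an Mki67 UMI gave 386 and 534, and both settings had fewer cells. DESeq2 gave 1589 higher and 1781 lower, TMM factors over all genes 1714 and 1971, and DESeq2 size factors 1849 and 1856, so the share of calls that were higher was 47.2%, 46.5% and 49.9%, against 56.1% in the main analysis and 42% among Mki67-positive cells. TMM over all genes lowered the median log2 change of all genes to 0.04. Without the replicate block there were 1608 higher and 1307 lower genes, and with only the 4 sums and the block 2050 and 1835. Of the 141 called genes named by the rule, 86 kept call and direction under all 11 alternatives, and 138 kept their direction also in each library alone. Calls lost numbered 49 among Mki67-positive cells and 16 each without the block and with thinned cells. Among Mki67-positive cells the log2 change changed sign for Smad5 (-0.0804), Ier2 (-0.0278) and Krt18 (-0.0529), and the medians of the cell cycle inhibitor, EGF and immediate-early lists changed sign to -0.25, -0.26 and -0.12. Setting genes at 0 in a class to the bound of 3 counts moved the medians of the Notch, EGF and Wnt lists to -0.29, -0.06 and 0.25. Leaving out 1 library gives values with no residual degrees of freedom and no test. Depth limits low genes: the ENTERO-PRO sums held 632914 and 789346 UMIs. The causes of these changes were not tested.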
